A study of Homo sapiens with 6 samples.

Results

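The genes described here build the machinery that moves and divides chromosomes: kinetochore proteins, spindle proteins, the condensin complexes and the proteins of cytokinesis. They were taken from a list of 56 gene symbols, and the brightest probe set of each gene was read. A probe set is the group of array probes that reads 1 gene. Of the 56 genes, 55 had a probe set assigned to that gene alone, of 18417 genes tested on the array. CENPA, the histone that marks the centromere, shared its only probe set with SLC35F6 and was not reported. The RNA came from Du145, an established human prostate carcinoma cell line grown in high glucose DMEM with 10% serum, 5% CO2 and 1% oxygen, and every group had 24 h of hypoxia. The control group is named only as control, and neither a virus nor a hairpin is given for it. The shTSC2 group was infected with lentivirus that lowers TSC2, a protein that restrains the mTORC1 growth kinase, and the shTSC2-adapted group came from knockdown cells that had adapted. What the cells adapted to, for how long, and whether they were a clone are not given. Each group had 2 arrays, which the labels number only First and Second, so the p-values measure the spread between arrays, which may be technical.

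A kinetochore is layered. The inner proteins, named CENP, sit on centromeric chromatin through the whole cycle. The outer Ndc80, Mis12 and KNL1 modules together link the kinetochore to microtubules. The corona, the checkpoint proteins and the SKA complex join or act mainly in mitosis. Condensin folds the chromosomes, spindle proteins organise the microtubules, and the central spindle places the cleavage furrow. In dividing cells many of these transcripts rise in G2 and M phase under the MuvB, B-MYB and FOXM1 regulators, while others are kept at a steady level.

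Levels are log2 of the normalised intensity, and a change is a difference of group means on that scale, with its standard error (SE) from limma. A gene was called where limma's p, adjusted by Benjamini-Hochberg over all 18417 genes, was under 0.05. TSC2 read 7.52 and 7.59 in control, 6.67 and 6.55 in shTSC2 and 6.54 and 6.48 in shTSC2-adapted, changes from control of -0.94 for shTSC2 (adjusted p = 0.00102) and -1.04 for shTSC2-adapted (adjusted p = 0.0241). Both knockdown groups lay below both controls, at 51.9% and 48.5% of the control level. The adapted call was lost with any 1 control or adapted array left out (adjusted p = 0.0973 to 0.386, changes of -1.08 to -1.01) and with the array number as a replicate block (adjusted p = 0.0515). Arrays of a group correlated at 0.99 to 0.997 over all genes, and arrays of different groups at 0.971 to 0.993. All 5 epithelial markers were measured, with gene means of 6.16 to 11.40, and all 4 endothelial markers lay below 5.02, the lower quartile of the genes tested. Of 5 fibroblast markers 2 lay below that quartile and the highest was 6.72. Of 4 measured leukocyte markers 3 lay below it and the highest was 5.88. The mean of the epithelial markers was 8.95 and 8.82 in control, 8.32 and 8.51 in shTSC2 and 9.46 and 9.24 in shTSC2-adapted, and EPCAM and KRT19 fell in shTSC2, by 1.28 and 1.38. KRT8, KRT18 and CDH1 did not pass there, with changes of 0.27, 0.17 and -0.14, and from shTSC2 to shTSC2-adapted EPCAM, KRT19 and CDH1 rose by 1.65, 1.55 and 1.54. Of 5 markers of luminal prostate cells with androgen receptor 2 were measured, at 5.13 and 5.40, and no luminal, fibroblast, endothelial or leukocyte marker was called in any comparison. The part of the epithelial markers in the results on the division genes was not tested. In such bulk RNA, fewer cells in G2 or M phase and less of these RNAs per cell cannot be told apart.

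Knockdown of TSC2 went with lower RNA of most of the division machinery. Of the 55 genes, 40 fell in shTSC2 against control, 2 rose (CENPM and CENPU) and 13 did not pass the test. Of all genes tested, 13.9% fell and 6.87% rose in the same comparison. The median change of the 55 was -0.95, where that of all genes was 0.03. The largest falls were those of ASPM, TOP2A and DLGAP5, to 18.5%, 19.7% and 20.2% of the control level. To contrast regulated with constitutive subunits, genes were classed from general knowledge of their cell-cycle behaviour: 27 measured genes as G2/M-regulated, 6 as constitutive (MIS12, NSL1, ZW10, BUB3, CKAP5 and NCAPH2) and 22 as neither. Earlier results of these data were known when the classes were chosen, so the contrast between classes may not be independent of the values. All 27 of the G2/M-regulated genes fell, with changes of -2.44 (ASPM) to -0.58 (NCAPG) and a median of -1.27, or 41.5% of control. Of the 6 constitutive genes 2 fell, CKAP5 and BUB3, and the median was -0.16. Among the 22 others 11 fell, 2 rose and 9 did not pass, with a median of -0.41. The count of falls was 33 without the first control array and 34 without the second, and in both cases the lost calls were mainly outside the regulated class, where 3 genes (BIRC5, SKA1 and NCAPG) lost theirs.

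**Figure D1:**
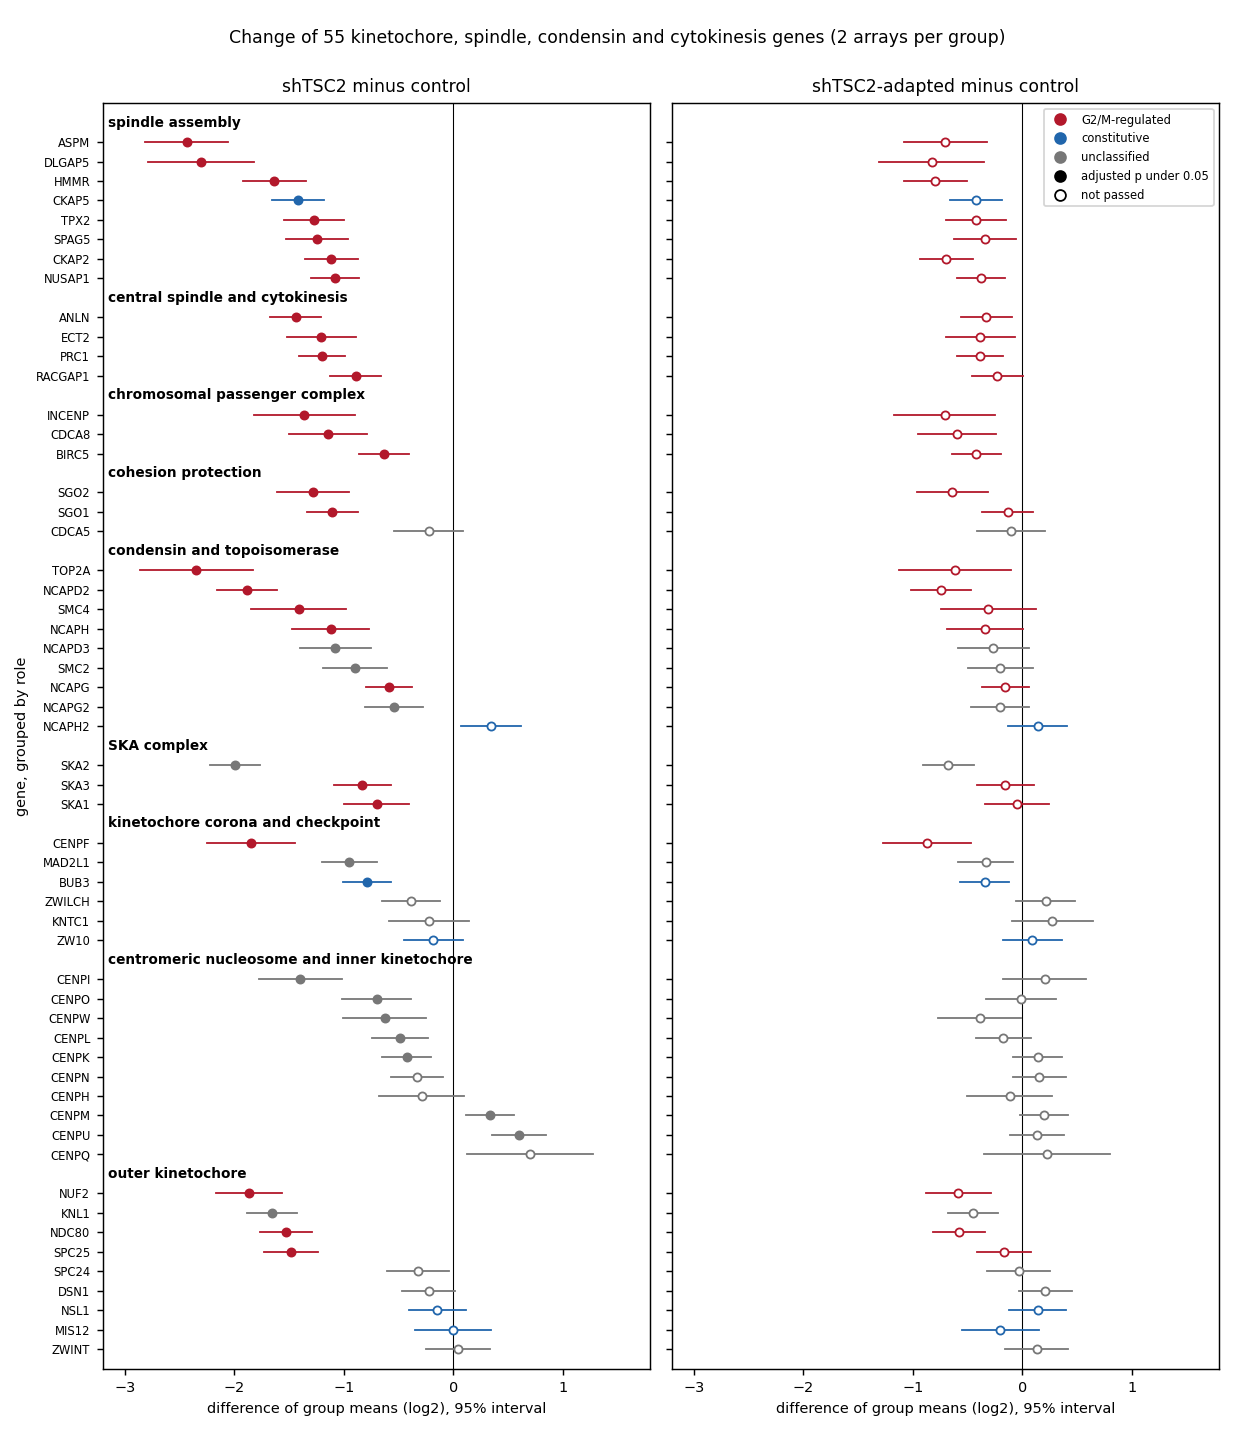
Change in log2 intensity from control to shTSC2 and from control to shTSC2-adapted for each of the 55 genes, ordered by role, with bars for the 95% interval of the difference from limma (2 arrays a group) and filled points for an adjusted p under 0.05. Spindle and cytokinesis genes lie left of 0 in shTSC2, while CENPM, CENPU, CENPQ, NCAPH2 and, by little, ZWINT lie right of it. The shTSC2-adapted points lie nearer to 0 for most genes.

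Promoters are shown because the regulated genes are known for 2 short elements near the start site, the cell cycle genes homology region (CHR), read by MuvB complexes, and the CCAAT box, read by NF-Y. The search used TTTGAA or TTCGAA or TTTAAA for the CHR, CCAAT for the box, and TTCCCGC or TTGGCGC or TTCGCGC or TTGCCGC for E2F sites, on both strands, in windows of 250 bases before to 50 bases after the start from RefSeq (GRCh38.p14). Of the 55 genes, 45 matched a window. In 4 places in these windows a match shared bases with a match to another motif or strand. The 9 windows printed are the last 150 bases before the start, 5′ to 3′ on the gene's strand, in lower case with CHR and CCAAT matches of either strand in capitals.

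The first set shows regulated genes that fell. PRC1 lies at chr15:90994536-90994685 on the minus strand, HMMR at chr5:163460482-163460631 on the plus strand, INCENP at chr11:62123861-62124010 on the plus strand and CDCA8 at chr1:37692366-37692515 on the plus strand.
PRC1: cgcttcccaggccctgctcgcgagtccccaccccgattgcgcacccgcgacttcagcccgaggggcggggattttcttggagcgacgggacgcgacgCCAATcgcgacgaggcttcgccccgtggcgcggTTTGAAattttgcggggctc
HMMR: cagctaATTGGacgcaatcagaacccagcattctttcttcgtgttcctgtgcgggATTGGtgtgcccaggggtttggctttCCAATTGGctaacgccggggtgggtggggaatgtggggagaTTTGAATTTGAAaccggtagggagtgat
INCENP: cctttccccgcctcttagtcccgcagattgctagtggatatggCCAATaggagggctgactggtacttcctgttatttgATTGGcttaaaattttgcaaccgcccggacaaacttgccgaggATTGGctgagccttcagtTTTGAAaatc
CDCA8: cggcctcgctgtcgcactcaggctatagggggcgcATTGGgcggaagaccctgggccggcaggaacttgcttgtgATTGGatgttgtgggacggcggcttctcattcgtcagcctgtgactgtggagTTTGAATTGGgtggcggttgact
PRC1 has the plain arrangement, a CCAAT box with its first base at -53 and a CHR at -20. HMMR carries a pair of CHR matches side by side, at -28 and -22, downstream of 5 CCAAT matches, of which 4 lie in the printed bases. INCENP and CDCA8 each have 3 CCAAT matches, and a CHR at -10 and at -23.

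The second set shows genes that the classes or the values put apart. CKAP5 (chr11:46846281-46846430 on the minus strand) was classed as constitutive and fell. ZWINT (chr10:56361260-56361409 on the minus strand), MIS12 (chr17:5486224-5486373 on the plus strand) and NSL1 (chr1:212791778-212791927 on the minus strand) did not pass the test, and CENPU (chr4:184734097-184734246 on the minus strand) rose.
CKAP5: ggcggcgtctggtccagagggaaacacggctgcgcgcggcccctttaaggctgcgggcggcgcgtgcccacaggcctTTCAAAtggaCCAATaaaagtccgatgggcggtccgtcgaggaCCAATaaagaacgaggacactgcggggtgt
ZWINT: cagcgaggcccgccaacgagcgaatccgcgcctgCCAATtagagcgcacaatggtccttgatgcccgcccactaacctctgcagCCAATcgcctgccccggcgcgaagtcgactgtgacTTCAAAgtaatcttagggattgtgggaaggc
MIS12: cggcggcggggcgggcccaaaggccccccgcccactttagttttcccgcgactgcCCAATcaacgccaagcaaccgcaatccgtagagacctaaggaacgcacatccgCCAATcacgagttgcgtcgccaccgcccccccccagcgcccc
NSL1: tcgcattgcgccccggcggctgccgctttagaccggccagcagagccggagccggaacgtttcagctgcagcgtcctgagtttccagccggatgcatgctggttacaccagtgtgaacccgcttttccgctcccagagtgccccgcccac
CENPU: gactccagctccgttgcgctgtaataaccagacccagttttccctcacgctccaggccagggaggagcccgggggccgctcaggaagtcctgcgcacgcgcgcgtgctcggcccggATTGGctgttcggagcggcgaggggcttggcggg
The CKAP5 window has CHR letters on the opposite strand at -73, beside CCAAT boxes at -63 and -30, and a further CHR match at 18, after the start. ZWINT, with a change near 0, also has CHR letters on the opposite strand, at -31, and 2 CCAAT boxes. MIS12 has 2 CCAAT boxes and no CHR match, CENPU has 1 CCAAT match and no CHR match, and NSL1 has neither in this window.

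A CHR match stood in 33 of the 45 windows (73.3%), against 20.3% of the 14239 promoters of tested genes and 25.3% of all promoters in the table. By class, the match stood in 23 of 24 windows of regulated genes (95.8%), CKAP2 being the exception, in 2 of 4 of constitutive genes and in 8 of 17 of the rest. The letters TTTGAA alone stood in 20 of the 24 regulated windows, against 11.9% of tested genes. By response, the CHR stood in 29 of 34 windows of genes that fell and in 4 of 11 of those that did not. Every regulated gene fell, so this split repeats much of the split by class. Among the unclassified genes alone the counts were 5 of 9 and 3 of 8. CCAAT boxes stood in 20 of 34 windows of genes that fell and in 8 of 11 of those that did not (36.3% of tested genes). The E2F letters stood in 10 of 34 windows of genes that fell and 7 of 11 of those that did not (17.5% of tested genes). In 29 of the 33 genes with a CHR match, one lay within 50 bases of the start. A match is a description of letters in a window, and no site was measured here.

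**Figure D2:**
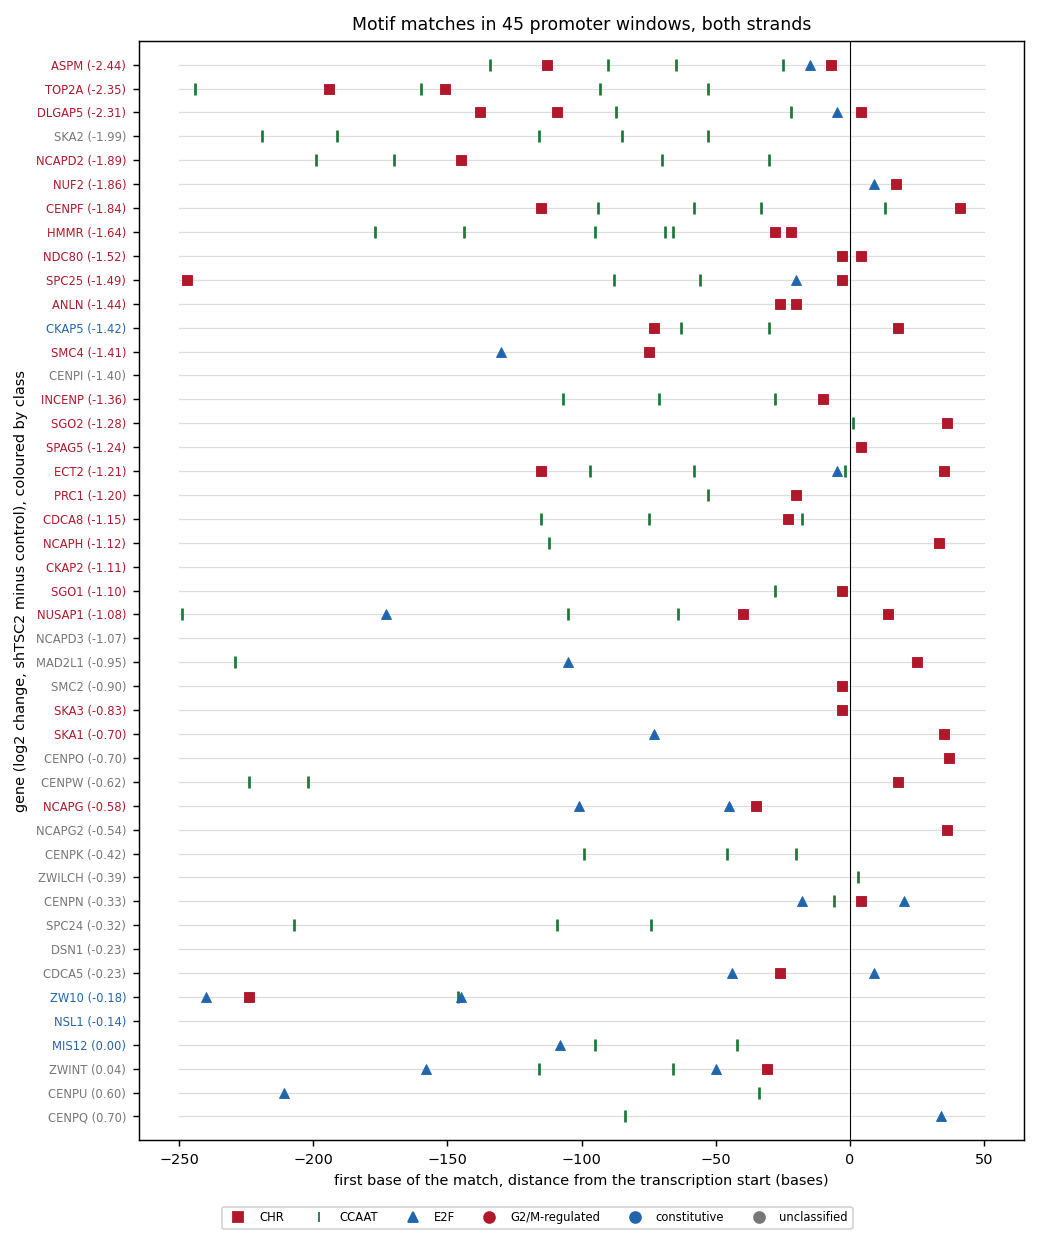
Positions of CHR, CCAAT and E2F letter matches in the windows of the 45 genes, in bases from the start, with genes ordered by their change in shTSC2. Most genes that fell have a CHR match within 50 bases of the start, and such matches are fewer among the genes that did not pass or rose.

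The inner kinetochore, which stays at the centromere through the cycle, was divided. Of its 10 measured genes 5 fell in shTSC2, 2 rose and 3 did not pass, with a median change of -0.38. CENPI, a subunit of the CENP-HIKM group, read 9.32 and 9.36 in control, 8.03 and 7.86 in shTSC2 and 9.79 and 9.30 in shTSC2-adapted. The shTSC2 arrays lay more than 1 log2 unit below the controls, and CENPI fell by 1.40 (SE 0.16, adjusted p = 0.00156). Of the adapted arrays, the first lay above the controls and the second just below them. CENPK, of the same group, read 9.39 and 9.34 in control, 8.99 and 8.89 in shTSC2 and 9.55 and 9.46 in shTSC2-adapted, and it fell by 0.42 (adjusted p = 0.0194), a call lost under 4 alternatives, among them leaving out either control array (adjusted p up to 0.147). CENPH, the partner of CENPK, read 6.99 and 7.00 in control, 6.88 and 6.54 in shTSC2 and 6.67 and 7.09 in shTSC2-adapted, with 1 shTSC2 array close to the controls and the other the lowest of all. Its change of -0.28 did not pass (adjusted p = 0.279).

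CENPM, the fourth of the group, read 8.21 and 8.10 in control, 8.49 and 8.50 in shTSC2 and 8.33 and 8.37 in shTSC2-adapted, with both shTSC2 arrays above every other. It rose by 0.34 (SE 0.09, adjusted p = 0.0401), a call lost in 10 of the 16 alternatives, with adjusted p up to 0.27. CENPL fell by 0.48 (adjusted p = 0.0181) from control levels of 8.17 and 8.23. Its call was lost under 4 alternatives: quantile normalisation (adjusted p = 0.0526), either control array left out and the second shTSC2 array left out. The changes with the first or second control array left out were -0.515 and -0.455. CENPN, its partner in binding the CENPA nucleosome, read 8.99 and 8.94 in control, 8.54 and 8.73 in shTSC2 and 9.13 and 9.11 in shTSC2-adapted, and its change of -0.33 did not pass (adjusted p = 0.0598, and 0.0308 without the second shTSC2 array). CENPW, a histone-fold protein that contacts DNA, read 7.47 and 7.20 in control, 6.77 and 6.65 in shTSC2 and 6.73 and 7.16 in shTSC2-adapted. It fell by 0.62 (adjusted p = 0.0325, up to 0.218 with an array left out and 0.0504 with the replicate block). Of its adapted arrays, the first lay within the shTSC2 range and the second just below the controls.

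The CENP-OPQUR group, which links the centromere to microtubules and to the mitotic kinase PLK1, held members that went opposite ways. CENPO, whose arrays read 9.01 and 8.91 in control, 8.43 and 8.09 in shTSC2 and 9.04 and 8.86 in shTSC2-adapted, fell by 0.70 (SE 0.14, adjusted p = 0.0109, and 0.0729 and 0.0966 with a control array left out). CENPU, the PLK1-binding subunit, read 6.90 and 6.87 in control, 7.39 and 7.58 in shTSC2 and 6.97 and 7.07 in shTSC2-adapted. Its shTSC2 arrays were the highest and the others did not reach them: it rose by 0.60 (SE 0.10, adjusted p = 0.00713) and fell again by 0.47 from shTSC2 to shTSC2-adapted (adjusted p = 0.0292). Both changes use the same shTSC2 arrays. Without the first or the second control array the rise had an adjusted p of 0.0622 or 0.0772. CENPQ, the partner of CENPU, read 6.54 and 6.33 in control, 7.56 and 6.71 in shTSC2 and 6.72 and 6.60 in shTSC2-adapted, with 1 shTSC2 array far above the other. Its mean change of 0.70 did not pass (adjusted p = 0.0885), but it passed as higher under 5 alternatives: the replicate block (0.0417), median centring (0.0488), dim genes left out (0.048), array weights (0.0486) and the second shTSC2 array left out (change 1.12, adjusted p = 0.00241).

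In the outer kinetochore, the part that grips microtubules, 4 of 9 genes fell and 5 did not pass. NUF2, a coiled-coil arm of the Ndc80 complex, read 9.90 and 9.88 in control, 8.18 and 7.87 in shTSC2 and 9.39 and 9.22 in shTSC2-adapted. Its partner NDC80, which holds the microtubule-binding head, read 9.76 and 9.67 in control, 8.20 and 8.18 in shTSC2 and 9.22 and 9.05 in shTSC2-adapted. SPC25, at the inner end of the complex, read 8.64 and 8.77 in control, 7.30 and 7.14 in shTSC2 and 8.50 and 8.58 in shTSC2-adapted. In all 3 genes the shTSC2 arrays lay lowest and the adapted arrays between them and the controls, an order that 1584 of 18417 genes had. The changes were -1.86 (SE 0.13, adjusted p = 0.000363) for NUF2, -1.52 (adjusted p = 0.000344) for NDC80 and -1.49 (adjusted p = 0.000383) for SPC25. SPC24, the fourth subunit, read 8.86 and 8.83 in control, 8.55 and 8.50 in shTSC2 and 8.65 and 8.97 in shTSC2-adapted. Its shTSC2 arrays were also the lowest, but its change of -0.32 (95% interval -0.61 to -0.03) did not pass (adjusted p = 0.112, and 0.0469 with the gene length trend removed).

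KNL1, the scaffold on which the checkpoint kinase BUB1 is loaded, read 9.18 and 9.14 in control, 7.45 and 7.56 in shTSC2 and 8.66 and 8.76 in shTSC2-adapted. The gene fell by 1.66 (SE 0.10, adjusted p = 0.000256), while none of the 3 subunits read of the Mis12 complex, which carries it, passed the test. DSN1 of that complex read 9.44 and 9.35 in control, 9.08 and 9.26 in shTSC2 and 9.58 and 9.63 in shTSC2-adapted, a change of -0.23 (adjusted p = 0.177). MIS12 itself, a constitutive gene, read 8.09 and 8.21 in control, 8.33 and 7.97 in shTSC2 and 8.08 and 7.82 in shTSC2-adapted, and its shTSC2 arrays lay on either side of the controls. Its change was 0.00, with an interval of -0.35 to 0.35. NSL1, also constitutive, read 9.49 and 9.59 in control, 9.33 and 9.46 in shTSC2 and 9.78 and 9.58 in shTSC2-adapted, a change of -0.14 (interval -0.41 to 0.12). ZWINT, which joins KNL1 to the corona, read 9.94 and 9.81 in control, 10.07 and 9.77 in shTSC2 and 10.04 and 9.97 in shTSC2-adapted, the shTSC2 arrays spanning the controls, for a change of 0.04 (interval -0.24 to 0.34).

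Of the 6 corona and checkpoint genes 3 fell and 3 did not pass. CENPF, a large corona protein that binds dynein regulators, read 9.97 and 10.02 in control, 8.43 and 7.87 in shTSC2 and 9.12 and 9.13 in shTSC2-adapted. The gene fell by 1.84 (SE 0.17, adjusted p = 0.000765), to 27.8% of control, the adapted arrays lying between the other groups. MAD2L1, the MAD2 protein that inhibits the anaphase-promoting complex, read 9.65 and 9.46 in control, 8.60 and 8.61 in shTSC2 and 9.15 and 9.29 in shTSC2-adapted, and fell by 0.95 (adjusted p = 0.00145). BUB3, a constitutive partner of BUB1 that also works in interphase, read 11.18 and 11.24 in control, 10.37 and 10.48 in shTSC2 and 10.88 and 10.85 in shTSC2-adapted. Its groups did not overlap, and it fell by 0.79 (SE 0.09, adjusted p = 0.00176).

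No subunit of the RZZ complex, which recruits dynein and MAD1 to the kinetochore, passed the test in shTSC2 against control. ZWILCH read 9.14 and 9.05 in control, 8.81 and 8.61 in shTSC2 and 9.40 and 9.22 in shTSC2-adapted, with the shTSC2 arrays lowest and a change of -0.39 (adjusted p = 0.053). It passed as lower with the replicate block (adjusted p = 0.0409), with dim genes left out (0.0423), with array weights (0.0496) and without the first shTSC2 array (0.0348). KNTC1, the ROD subunit, read 8.36 and 8.55 in control, 8.09 and 8.38 in shTSC2 and 8.91 and 8.55 in shTSC2-adapted, the groups overlapping, for a change of -0.22 (adjusted p = 0.378). ZW10, a constitutive subunit with a separate role in membrane traffic, read 8.46 and 8.52 in control, 8.45 and 8.17 in shTSC2 and 8.58 and 8.58 in shTSC2-adapted, a change of -0.18 (adjusted p = 0.326).

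**Figure D3:**
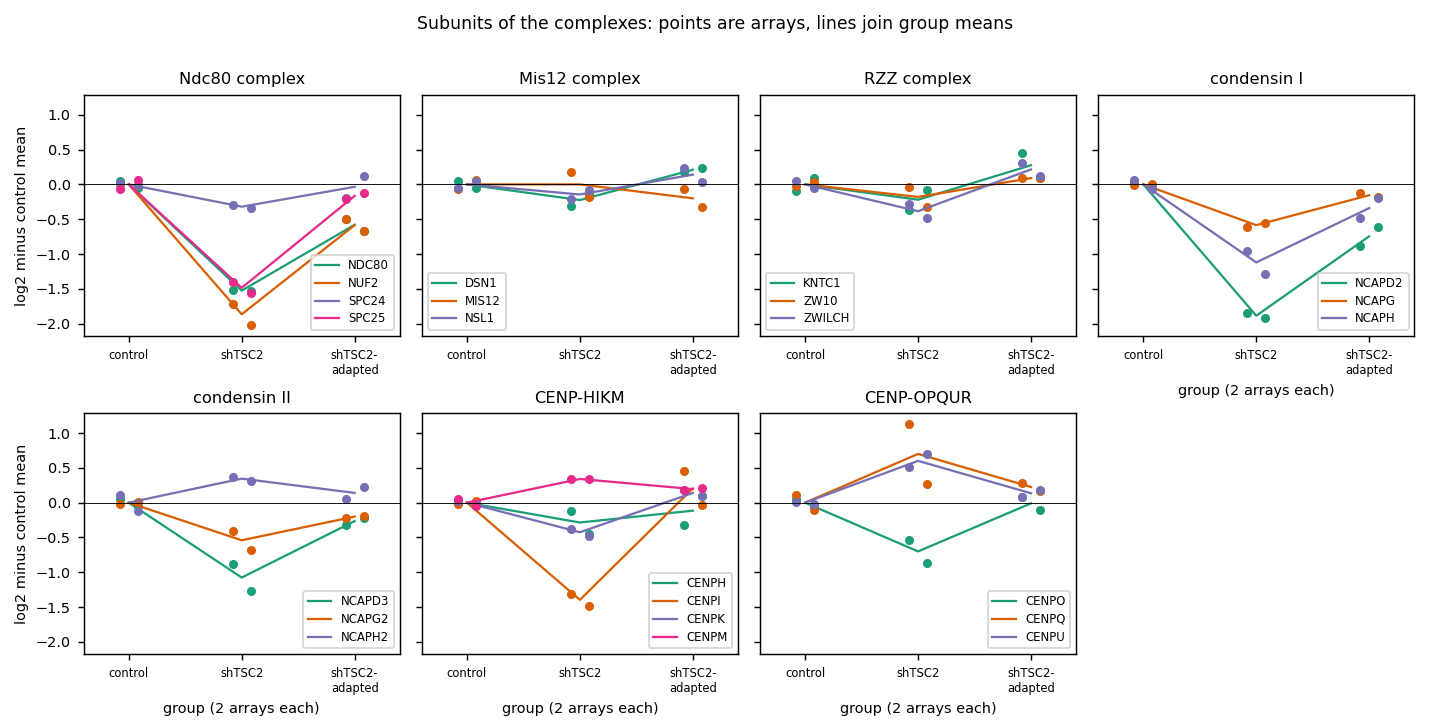
Log2 intensity relative to the control mean on every array for the measured subunits of 7 complexes, with lines through the group means; the grouping into complexes was made after the values were seen. NDC80, NUF2 and SPC25 dip in shTSC2 beside a flatter SPC24, the Mis12 and RZZ subunits stay nearer to level, and NCAPH2 does not dip with the other condensin II subunits.

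Among the protectors of sister cohesion, SGO2 and SGO1, the shugoshins that keep phosphatase at the centromere, both fell. SGO2 read 8.04 and 8.05 in control, 6.97 and 6.56 in shTSC2 and 7.37 and 7.44 in shTSC2-adapted, and fell by 1.28 (SE 0.14, adjusted p = 0.00126). SGO1 read 8.26 and 8.31 in control, 7.20 and 7.16 in shTSC2 and 8.23 and 8.07 in shTSC2-adapted, and fell by 1.10 (SE 0.10, adjusted p = 0.000721). The adapted arrays of SGO1 lay just below the controls, while those of SGO2 lay between the other groups. CDCA5 (sororin), which holds cohesin on DNA from S phase, read 8.68 and 8.60 in control, 8.45 and 8.38 in shTSC2 and 8.35 and 8.72 in shTSC2-adapted and did not pass, with a change of -0.23 (adjusted p = 0.288).

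The chromosomal passenger complex carries the Aurora B kinase from centromeres to the midzone, and all 3 of its non-kinase subunits fell. INCENP, the kinase-activating scaffold, read 8.70 and 8.54 in control, 7.50 and 7.02 in shTSC2 and 7.68 and 8.14 in shTSC2-adapted, and fell by 1.36 (SE 0.20, adjusted p = 0.00354). CDCA8 (borealin), which targets the complex to the centromere, read 8.23 and 8.19 in control, 7.25 and 6.88 in shTSC2 and 7.47 and 7.76 in shTSC2-adapted, and fell by 1.15 (SE 0.15, adjusted p = 0.00243). BIRC5 (survivin) read 9.79 and 9.69 in control, 9.16 and 9.06 in shTSC2 and 9.29 and 9.35 in shTSC2-adapted and fell least, by 0.63 (adjusted p = 0.0043, and 0.0552 without the first control array). The other BIRC5 probe set changed by -0.36 (adjusted p = 0.107). None of the 3 genes passed the test between shTSC2-adapted and shTSC2, where INCENP differed by 0.65, CDCA8 by 0.55 and BIRC5 by 0.21 (adjusted p = 0.0782, 0.0562 and 0.215).

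The SKA complex, which holds kinetochores on shrinking microtubule ends, fell in all 3 subunits. SKA2 read 10.63 and 10.63 in control, 8.58 and 8.70 in shTSC2 and 10.01 and 9.90 in shTSC2-adapted, and fell by 1.99 (SE 0.10, adjusted p = 0.000256), to 25.2% of control. The array numbers around that probe set belong to chromosome 9 (20 of 20 neighbours), where RefSeq places the pseudogene SKA2P1, and not to chromosome 17, where SKA2 lies, so signal from the copy cannot be told apart. The other SKA2 probe set, whose neighbours lie on chromosome 17, changed by -2.08 (adjusted p = 0.00112). SKA3 read 8.05 and 8.05 in control, 7.35 and 7.09 in shTSC2 and 7.90 and 7.89 in shTSC2-adapted, and fell by 0.83 (adjusted p = 0.00256). SKA1 read 7.82 and 7.59 in control, 6.92 and 7.09 in shTSC2 and 7.56 and 7.75 in shTSC2-adapted, and fell by 0.70 (adjusted p = 0.00793, and 0.0812 without the first control array). In the adapted cells SKA1 overlapped the control range, and SKA3 lay just below it.

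All 8 spindle genes fell, with a median change of -1.34. ASPM, which focuses microtubule minus ends at the poles, read 9.28 and 9.52 in control, 7.07 and 6.86 in shTSC2 and 8.90 and 8.49 in shTSC2-adapted, and fell by 2.44 (SE 0.16, adjusted p = 0.000344). DLGAP5 (HURP), a stabiliser of kinetochore fibres, read 10.49 and 10.58 in control, 8.58 and 7.88 in shTSC2 and 9.76 and 9.65 in shTSC2-adapted, and fell by 2.31 (SE 0.21, adjusted p = 0.000715). HMMR, a spindle-pole protein and TPX2 partner, read 9.24 and 9.28 in control, 7.78 and 7.47 in shTSC2 and 8.51 and 8.42 in shTSC2-adapted, and fell by 1.64 (adjusted p = 0.000464). The shTSC2 arrays of DLGAP5 lay further apart than those of any other gene in this group.

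CKAP5 (chTOG), a microtubule polymerase that also works in interphase and was classed as constitutive, read 10.10 and 10.04 in control, 8.57 and 8.73 in shTSC2 and 9.60 and 9.69 in shTSC2-adapted. Its change of -1.42 (SE 0.10, adjusted p = 0.00039) put it in the middle of the regulated spindle genes. TPX2, the activator of Aurora A, read 10.37 and 10.36 in control, 8.95 and 9.24 in shTSC2 and 9.93 and 9.95 in shTSC2-adapted, and SPAG5 (astrin), which acts at bioriented kinetochores, read 10.43 and 10.57 in control, 9.40 and 9.12 in shTSC2 and 10.13 and 10.18 in shTSC2-adapted. Their changes were -1.27 and -1.24 (adjusted p = 0.000759 and 0.000871). CKAP2, a microtubule stabiliser, read 10.24 and 10.35 in control, 9.27 and 9.09 in shTSC2 and 9.61 and 9.59 in shTSC2-adapted, and NUSAP1, which binds microtubules near chromatin, read 10.51 and 10.62 in control, 9.48 and 9.49 in shTSC2 and 10.21 and 10.16 in shTSC2-adapted. These had the smallest falls of the group, with changes of -1.11 and -1.08 (adjusted p = 0.000771 and 0.000643).

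The 4 central spindle and cytokinesis genes all fell, with changes of -1.44 to -0.89. ANLN (anillin), the scaffold of the contractile ring, read 11.02 and 11.06 in control, 9.52 and 9.68 in shTSC2 and 10.67 and 10.75 in shTSC2-adapted, and fell by 1.44 (SE 0.10, adjusted p = 0.000369). ECT2, the exchange factor that activates RHOA at the furrow, read 10.70 and 10.87 in control, 9.41 and 9.75 in shTSC2 and 10.44 and 10.36 in shTSC2-adapted, and fell by 1.21 (SE 0.13, adjusted p = 0.00135). PRC1, which bundles antiparallel microtubules, read 10.80 and 10.79 in control, 9.59 and 9.61 in shTSC2 and 10.38 and 10.44 in shTSC2-adapted, and fell by 1.20 (SE 0.09, adjusted p = 0.000473). RACGAP1, the centralspindlin subunit that binds ECT2, fell least: it read 10.44 and 10.39 in control, 9.58 and 9.47 in shTSC2 and 10.25 and 10.12 in shTSC2-adapted, and fell by 0.89 (adjusted p = 0.00137). In all 4 genes the adapted arrays lay between the shTSC2 and the control arrays, an order that 1584 of 18417 genes had.

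TOP2A, the topoisomerase that untangles sister chromatids, read 10.80 and 10.96 in control, 8.91 and 8.16 in shTSC2 and 10.30 and 10.23 in shTSC2-adapted, and fell by 2.35 (SE 0.22, adjusted p = 0.000771). Condensin I, which reaches chromosomes after the nuclear envelope breaks down, fell in each of its own subunits. NCAPD2 read 10.56 and 10.53 in control, 8.70 and 8.62 in shTSC2 and 9.66 and 9.94 in shTSC2-adapted, and fell by 1.89 (SE 0.12, adjusted p = 0.00029). NCAPH, the kleisin that closes the ring, read 8.45 and 8.31 in control, 7.43 and 7.09 in shTSC2 and 7.90 and 8.18 in shTSC2-adapted, and fell by 1.12 (adjusted p = 0.00251). NCAPG read 10.83 and 10.85 in control, 10.23 and 10.28 in shTSC2 and 10.71 and 10.66 in shTSC2-adapted, and its change of -0.58 (adjusted p = 0.00434, and 0.0586 without the second control array) was the smallest fall of the G2/M-regulated genes.

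SMC4 and SMC2 form the ATPase core that both condensins share. SMC4 read 10.33 and 10.51 in control, 8.71 and 9.31 in shTSC2 and 10.08 and 10.14 in shTSC2-adapted, and fell by 1.41 (SE 0.19, adjusted p = 0.00243), with a wide gap between its shTSC2 arrays. SMC2 read 10.13 and 10.21 in control, 9.15 and 9.40 in shTSC2 and 9.86 and 10.08 in shTSC2-adapted, and fell by 0.90 (adjusted p = 0.00302). Condensin II, which is nuclear through the cycle, was mixed. NCAPD3 read 10.08 and 9.97 in control, 9.14 and 8.76 in shTSC2 and 9.71 and 9.81 in shTSC2-adapted, and fell by 1.07 (adjusted p = 0.0022), and NCAPG2 fell by 0.54 (adjusted p = 0.0147, up to 0.118 without a control array) between lowest and highest arrays of 9.22 and 9.91. NCAPH2, its kleisin and a constitutive gene, read 7.05 and 6.82 in control, 7.31 and 7.25 in shTSC2 and 6.99 and 7.16 in shTSC2-adapted. Its shTSC2 arrays were the highest, and its change of 0.34 did not pass (adjusted p = 0.0784) but passed as higher under quantile normalisation (0.45, adjusted p = 0.0296) and median centring (0.40, adjusted p = 0.0459).

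Set beside each other by array, the classes, which were chosen with earlier results of these data known, stood apart on both shTSC2 arrays. The median of the 27 G2/M-regulated genes, relative to the control mean, was -1.21 and -1.33 in the knockdown samples and -0.45 and -0.41 in the adapted samples. The constitutive genes had medians of -0.12 and -0.25, then -0.01 and -0.14. The unclassified genes had medians of -0.39 and -0.48, then 0.00 and 0.09, and all genes lay between -0.01 and 0.03. The spread within the constitutive class was wide, from -1.42 (CKAP5) to 0.34 (NCAPH2). Gene spans were alike, with medians of 33.9 kb, 28.5 kb and 34.9 kb for the regulated, constitutive and unclassified genes, against 24.5 kb for all genes. With the trend of change on gene length removed, the regulated median was -1.22, with 27 of 27 lower, and the constitutive median -0.13, with 2 of 6 lower.

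**Figure D4:**
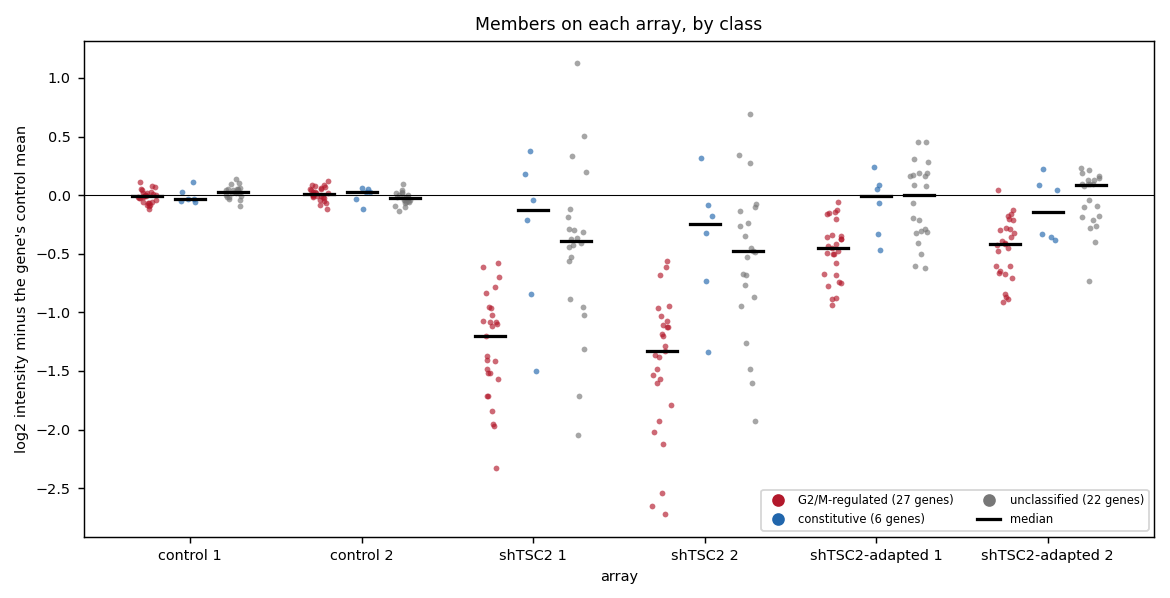
Log2 intensity of each gene relative to its control mean, on each of the 6 arrays, by class. The classes were chosen with earlier results of these data known. Black bars mark the class median on that array. The G2/M-regulated medians drop to -1.21 and -1.33 on the shTSC2 arrays, and 2 constitutive genes, CKAP5 and BUB3, lie below the rest of their class there.

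In the adapted cells, which kept a low TSC2 level, most of these genes lay between the knockdown and the control level. This comparison shares its control arrays with the one above, so no overlap or correlation between them is given as a result. None of the 55 genes passed limma's adjusted test between shTSC2-adapted and control, where 0.206% of all genes were lower and 0.0543% higher. At an unadjusted p under 0.05, 25 of the 55 were lower and 0 higher, against 7.25% and 5.33% of all genes. Those 25 were 19 of the 27 regulated genes, the constitutive BUB3 and CKAP5, and CENPW, KNL1, MAD2L1 and SKA2. The median change was -0.27, and by class -0.42 for regulated, -0.05 for constitutive and -0.02 for unclassified genes. SKA2 had the lowest adjusted p (0.0542, change -0.68), followed by CKAP2 (0.0581, change -0.69) and HMMR (0.0632, change -0.80). Under alternatives the count of genes called lower was 12 with array weights, 9 with the 4 arrays of these groups alone, 4 with dim genes left out, 3 with median centring and 1 with the gene length trend removed.

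Array by array, 37 of the 55 genes had both adapted values below both controls, 26 of them among the 27 regulated genes, where 24.1% of all genes did. SKA1, whose first array (7.56) was below and second (7.75) inside the control range, was the exception. Another 9 of the 55 genes had both adapted values above both controls, no more than the 21.8% of all genes that did. At an unadjusted limma p under 0.05, 0 of the 55 were higher. The 9 included 0 G2/M-regulated genes. They were CENPK, CENPM, CENPN, CENPQ and CENPU of the inner kinetochore, DSN1 and ZWINT of the outer kinetochore, and ZWILCH and ZW10 of RZZ. Their changes were 0.09 (ZW10) to 0.23 (CENPQ). CENPF kept the largest gap to control, -0.87 (adjusted p = 0.0922), and DLGAP5 the next, -0.83 (adjusted p = 0.149).

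Between the knockdown and the adapted cells, 37 of the 55 genes rose and CENPU fell, while 9.25% of all genes rose and 3.24% fell. The same shTSC2 arrays enter shTSC2 against control, so a low shTSC2 reading gives both a fall there and a rise here. The 2 comparisons are therefore not independent. The rise took in 24 of 27 regulated genes (median 0.84), 2 of 6 constitutive genes, BUB3 (0.44) and CKAP5 (0.99), and 11 of 22 others. ASPM and TOP2A each rose by 1.73 (adjusted p = 0.00214 and 0.00425), and CENPI by 1.60 (adjusted p = 0.00252). Of the regulated genes, only the chromosomal passenger subunits CDCA8, BIRC5 and INCENP did not pass. DSN1, CENPN and ZWILCH, which had not passed in shTSC2 against control, rose here by 0.43, 0.48 and 0.60 (adjusted p = 0.0347, 0.0236 and 0.017). In 35 of the 55 genes both adapted arrays lay below both controls and above both shTSC2 arrays, 26 of them G2/M-regulated, where 1584 of 18417 genes did so. That order uses the same arrays as the comparisons, so it is a description and adds no separate evidence. Without the first adapted array 20 genes rose, 14 of them regulated, and without the second 22, 16 of them regulated. The regulated CKAP2, NCAPG and SGO2 lost their calls here under 9, 6 and 5 alternatives. CENPF, SKA1, SKA3, SMC4, ECT2, HMMR, NCAPH and RACGAP1, also regulated, lost theirs under 1 or 2 each. The calls of BUB3, CENPU, DSN1, CENPN and ZWILCH in this comparison were each lost under 4 to 10 alternatives, the loss of the first adapted array among them (adjusted p up to 0.142).

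Other genes of the same processes were read from lists of loading factors, cohesin, nucleation, cytokinesis and transcription genes; their counts stand against 13.9% of all genes lower and 6.87% higher in shTSC2. Among 9 measured genes of CENPA loading and the remaining inner kinetochore, 4 (44.4%) fell in shTSC2 and 1 rose. HJURP, the CENPA chaperone, had the largest fall, 1.07, and CENPX the largest rise, 0.48. Of 15 genes of cohesin and its regulators 10 (66.7%) fell and 0 rose, NIPBL, the cohesin loader, most (1.14), while its partner MAU2 had the change nearest to a rise, -0.12. Of 13 measured γ-tubulin ring and augmin genes, which nucleate microtubules, TUBGCP3 fell and TUBGCP4 rose, by 0.35 and 0.53, and the most negative change, -0.52 for HAUS6, did not pass (adjusted p = 0.0547). These counts, 7.69% each way, lie near the shares of all genes. Of 11 measured cytokinesis genes 5 (45.5%) fell and 0 rose. CIT, the citron kinase of the midbody, fell by 1.39, and RHOA, at the other end, changed by 0.005. In the adapted cells 0 genes of any of these lists passed against control, and 1, 6, 3 and 4 were higher than in shTSC2 (11.1%, 40%, 23.1% and 36.4%, against 9.25% of all genes).

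The 14 regulators of G2/M transcription include the factors known to bind CHR and CCAAT elements. Of these 5 (35.7%, against 13.9% of all genes) fell in shTSC2 and 0 rose: FOXM1, the forkhead activator, by 1.00, RBL2 (p130), a subunit of the repressive DREAM complex, by 0.78, and the NF-Y subunits NFYA, NFYC and NFYB by 1.09, 0.75 and 0.46. LIN37, a MuvB subunit, had the most positive change, 0.31, which did not pass. None of the 14 passed between adapted and control, and 4 (28.6%, against 9.25% of all genes) were higher in adapted than in shTSC2 cells. The 5 that fell include activators, FOXM1 and NF-Y, and a subunit of a repressor, RBL2. MYBL2, the gene of the activator B-MYB, did not fall with them. Its change was 0.305 in shTSC2 (limma adjusted p = 0.134) and 0.40 in shTSC2-adapted against control (adjusted p = 0.239), and neither passed.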

How the data were processed

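RNA of 6 Du145 samples, 2 in each of 3 groups, was read on whole-transcript arrays. The authors used RMA (per the submitters' processing notes). The deposited table holds linear intensity values whose log2 falls on 2 decimals (largest distance 6.99e-10). The array medians were 58.1 to 63.1 intensity units; precision is limited by there being only 6 arrays. Of 33297 probe sets, 19460 carried 1 gene symbol in the platform annotation, 1754 carried several and 12083 were unnamed here. The brightest set of each gene gave 18417 genes. Values were taken as log2, and limma 3.58.1 in R 4.3.3 fitted all 6 arrays with a mean for each group, so the groups share 1 estimate of the spread (two-sided tests, Benjamini-Hochberg over all genes, threshold 0.05). The limma fit was tested on simulated data with known changes.

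The genes, classes and lists were chosen with earlier results of these data known, and classes and lists are described by counts and medians, with no test. Every member is named. Values on every array were given for the 3 largest falls and the smallest change in each role, for every constitutive gene and for every gene called higher in any comparison. Of the other lists, the largest fall and rise were named. All called genes of the transcription list, MYBL2 and the called nucleation genes were added after their values were seen. The promoters printed and the grouping into complexes were also chosen after the values were seen. Sequences and gene spans come from RefSeq (GRCh38.p14). The alternatives were other scalings, filters and probe set choices, removal of a gene length trend, fewer arrays, array weights, an intensity trend, a replicate block, and each array left out in turn.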

Additional observations from a re-analysis of the deposited data

How the results depend on the processing

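With 2 arrays a group, calls close to the threshold moved with single arrays. No change of any of the 55 genes turned its direction while called, and of the 42 calls in shTSC2 against control, 32 held under every alternative. Over the 3 comparisons together 49 of 80 calls held, and most of the lost calls were in shTSC2-adapted against shTSC2. Genes lower in shTSC2 against control numbered 33 to 41 under all alternatives (33 to 40 with an array left out). Genes higher there numbered 4 with median centring, 1 with the gene length trend removed, 1 with only the 4 arrays compared, 1 with an intensity trend, and 0 to 2 with an array left out. Genes lower in shTSC2-adapted against control, 0 as reported, numbered 3 with median centring, 4 with dim genes left out, 1 with the gene length trend removed, 9 with only the 4 arrays compared, 12 with array weights, and 0 to 9 with an array left out, where leaving out either shTSC2 array gave 9. Genes lower in shTSC2-adapted against shTSC2 numbered 0 with only the 4 arrays compared and 0 to 1 with an array left out, and genes higher there 20 to 37. Over all genes, shTSC2 against control gave 2567 lower and 1266 higher, 2257 and 1802 with median centring, 2111 and 1891 with quantile normalisation, 1149 and 335 without the first control array, and 947 and 228 without the second. Why counts moved was not tested.

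With array number as a replicate block, 40 genes were lower and 2 higher in shTSC2 against control, 0 and 0 in shTSC2-adapted against control, and 1 and 35 in shTSC2-adapted against shTSC2. The block moved the call of TSC2 in shTSC2-adapted against control (adjusted p = 0.0515) and the calls of CENPM (0.0642), CENPQ (0.0417), CENPW (0.0504) and ZWILCH (0.0409) in shTSC2 against control, and DSN1 and CKAP2 were no longer called in shTSC2-adapted against shTSC2. Deviations of same-numbered arrays from their group means correlated over genes at -0.10 (control with shTSC2), -0.19 (control with shTSC2-adapted) and 0.21 (shTSC2 with shTSC2-adapted). With 2 arrays a group, each group gives only 1 profile of deviations. These values therefore cannot tell whether same-numbered arrays were handled together, and the labels do not say.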
